A study of Homo sapiens with 4 samples.

Results

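Lipolysis, the stepwise release of fatty acids from stored triglyceride, was examined in RKO cells, a human colon cancer line, through 9 genes: ABHD5, PNPLA2, LIPE, MGLL, PLIN2, PLIN3, HILPDA, DGAT1 and DGAT2. They were taken by gene symbol from the 15357 genes of the deposited tables, and all 9 had enough reads to be tested. RNA-seq had been performed to ask which transcripts change when CHD7, a chromodomain helicase that remodels chromatin, is knocked down. The 4 samples were 2 controls, called vector, and 2 samples carrying CHD7 shRNA2, called shCHD7_2, a CHD7 knockdown genotype. All of them were lentivirus-infected RKO cells with stable expression of their hairpin, grown in serum-containing medium, and their libraries were made with oligo-dT beads. The knockdown arm rests on a single hairpin in a single line, and no label says that the samples of a group came from separate cultures, so p-values measure only the spread between these samples.

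Stored triglyceride sits in lipid droplets, whose surface is coated by perilipins. ABHD5, also called CGI-58, has no triglyceride lipase activity of its own and activates PNPLA2, the adipose triglyceride lipase ATGL, which removes the first fatty acid. LIPE, the hormone-sensitive lipase HSL, acts mainly on the diglyceride that is left, and MGLL finishes the breakdown of the monoglyceride. HILPDA and its relative G0S2 inhibit PNPLA2, perilipins such as PLIN2 and PLIN3 limit access to the droplet, and DGAT1 and DGAT2 run the opposite reaction, the last step of triglyceride synthesis.

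ABHD5 was the only member that met both thresholds for a change, given below. The DNA just before its start is therefore shown beside that of PNPLA2, the lipase it activates, and of PLIN2, the member with the highest level. The sequences are the parts of the 250 bases upstream of the RefSeq start (GRCh38.p14) that no annotated exon of either strand covers, each written 5′ to 3′ on the strand of its gene, with capitals marking CpG dinucleotides. The ABHD5 stretch is 50 bases at chr3:43690820-43690869 on the plus strand, the PNPLA2 stretch is 238 bases at chr11:818664-818901 on the plus strand, and the PLIN2 stretch is 166 bases at chr9:19127577-19127742 on the minus strand.
ABHD5: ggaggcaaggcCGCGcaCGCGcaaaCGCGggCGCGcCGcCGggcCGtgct
PNPLA2: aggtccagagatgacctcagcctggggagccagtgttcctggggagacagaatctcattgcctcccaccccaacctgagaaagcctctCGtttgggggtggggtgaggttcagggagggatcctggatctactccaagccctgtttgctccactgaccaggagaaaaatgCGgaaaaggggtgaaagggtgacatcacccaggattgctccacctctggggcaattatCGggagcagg
PLIN2: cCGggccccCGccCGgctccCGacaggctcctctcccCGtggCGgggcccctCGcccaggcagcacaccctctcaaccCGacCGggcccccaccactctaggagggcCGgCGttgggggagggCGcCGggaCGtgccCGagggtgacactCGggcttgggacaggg

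The upstream sequences differ in CpG content. RefSeq gives ABHD5 3 starts, and the sequence above belongs to the most upstream of them. The GENCODE 29 annotation, used for the gene coordinates below, begins ABHD5 further upstream, at 43690108, and PLIN2 at 19149290 on the minus strand. By that annotation the ABHD5 and PLIN2 stretches lie inside their genes, and the PNPLA2 stretch ends just before its gene. The 250-base windows of the 3 ABHD5 starts hold 25, 34 and 38 CpG. The PLIN2 window holds 28 and the PNPLA2 window holds 4, beside a median of 11 over 35116 RefSeq windows. The first ABHD5 window exceeds 78.4% of those windows and the PNPLA2 window exceeds 29.3%. Searched on both strands, the 3 ABHD5 windows, which overlap, contain the GC box GGGCGG at 2, 3 and 1 places. The PLIN2 window contains it at 2 places and the PNPLA2 window at 1, and 42.6% of all windows hold it at least once. None of the ABHD5 windows has a match to the E-box CACGTG, to the hypoxia response core ACGTG that this E-box contains, to the CCAAT box, to the TATA box (searched as TATAAA), to the cAMP response half-site TGACG, to the nuclear receptor half-site AGGTCA or to the p53 half-site. The PLIN2 window holds the E-box, found in 6.34% of windows, the hypoxia response core at 3 places (counting matches inside the E-box), found in 18.5%, and the TATA box, found in 10.7%, and the PNPLA2 window holds the nuclear receptor half-site, found in 12.1%. Of the other members with windows, LIPE holds a p53 half-site in both of its windows, and 5.57% of all windows hold it. The first LIPE window and the PLIN3 window hold the cAMP response half-site, found in 21.2%. Both genes also hold the CCAAT box, found in 32%. All of these are matches of letters only, and none was measured for binding here.

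Each sample had between 15734679 and 16068650 estimated reads on genes, and normalised read counts (CPM, counts set to a common library size) were computed from library sizes scaled by TMM, edgeR's trimmed-mean scaling, with factors from 0.9828 to 1.019. Of 11955 genes with enough reads, 344 were called, which is 2.88% (180 higher and 164 lower), the rule for a call being an edgeR quasi-likelihood p, adjusted, that is under 0.05 together with a change of 1.5-fold or more. CHD7 itself had 85.4 and 91.0 CPM in vector and 55.5 and 50.1 CPM in shCHD7_2. This was a fall of 40.1% (log2 fold change -0.74, adjusted p = 4.15e-06 in edgeR), so the knockdown was partial in RNA. CHD7 protein is not part of these data, and the study reports its effective depletion in RKO cells by Western blotting. Of 12 colon epithelial markers 7 were in the tables, where EPCAM, KRT8, KRT18 and CDX2 were expressed, while CDH1, KRT20 and LGR5 were at or near 0 in both groups. The summed epithelial markers ran from 75.3 to 81.2 FPKM (fragments scaled by gene length and library size) in vector and from 81.6 to 90.3 FPKM in shCHD7_2, with 0 of the 4 tested called. Of 10 adipocyte markers 6 were in the tables and summed to 27.5 and 28.9 FPKM in vector and 30.9 and 31.3 FPKM in shCHD7_2, most of it ADIPOR2, with PLIN1 at no more than 0.09 FPKM in any sample. Fibroblast markers stayed at or below 0.13 FPKM in sum. Of the leukocyte markers, CD68, which is also a lysosomal protein of other cells, was high at 512 FPKM in vector and 607 FPKM in shCHD7_2, and CD14 and LYZ averaged no more than 0.25 FPKM. Of 4 housekeeping genes 0 were called, though GAPDH fell past the adjusted p alone (log2 fold change -0.25, adjusted p = 0.0129 in edgeR). ACTB, TBP and HPRT1 did not pass. In bulk samples such as these, fewer cells of a type and less RNA per cell cannot be told apart.

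ABHD5, the coactivator of PNPLA2, rose after CHD7 knockdown and was the single member called, 1 of 9 (11.1%) against 1.51% of all tested genes called higher. The members were chosen around ABHD5 with earlier results of these data known, so these shares cannot be weighed against each other. Its estimated counts were 709 and 759 in vector and 1299 and 1152 in shCHD7_2, which correspond to 45.7 and 48.1 CPM against 81.0 and 72.2 CPM. Both knockdown samples lay above both controls, with group means of 46.9 ± 1.702 CPM and 76.6 ± 6.23 CPM (SD, n = 2 each). The estimated log2 fold change of 0.71 had a standard error of 0.090 (p adjusted by Benjamini-Hochberg over all tested genes = 1.06e-05 in edgeR's quasi-likelihood test), a rise of 63.4% with a 95% interval from 43.6% to 86.0%. By p it stood 23rd among the 180 genes called higher, and its change was larger in size than that of 96.8% of the tested genes.

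The rise of ABHD5 was smaller per unit of length. In FPKM its values were 13.0 and 13.4 in vector and 22.5 and 18.4 in shCHD7_2, a log2 ratio of group means of 0.63. The length that the deposited counts and FPKM imply for the gene was 3469 and 3522 bases in vector and 3669 and 3961 bases in shCHD7_2, so it was longer in both knockdown samples. This shift of 0.12 on the log2 scale was larger in size than that of 98.2% of 10956 genes, and for the other members the shift was between -0.05 and 0.02. ABHD5 (chr3:43690108-43734371, plus strand, GENCODE 29 on GRCh38) has 16 annotated transcripts, of which 7 are coding, from 523 to 5366 bases long. The tables give 1 value per gene, so which transcripts were used was not measured.

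ABHD5 shares 170 exonic bases, 2.25% of its annotated exon sequence, with ANO10, a gene of the opposite strand, and the strand setting of the counting was not stated. ANO10 had 26.5 and 26.4 CPM in vector and 22.3 and 25.01 CPM in shCHD7_2, a log2 fold change of -0.16 that did not pass (adjusted p = 0.351 in edgeR). Both knockdown samples of ANO10 lay below both controls, the opposite order from ABHD5.

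**Figure D1:**
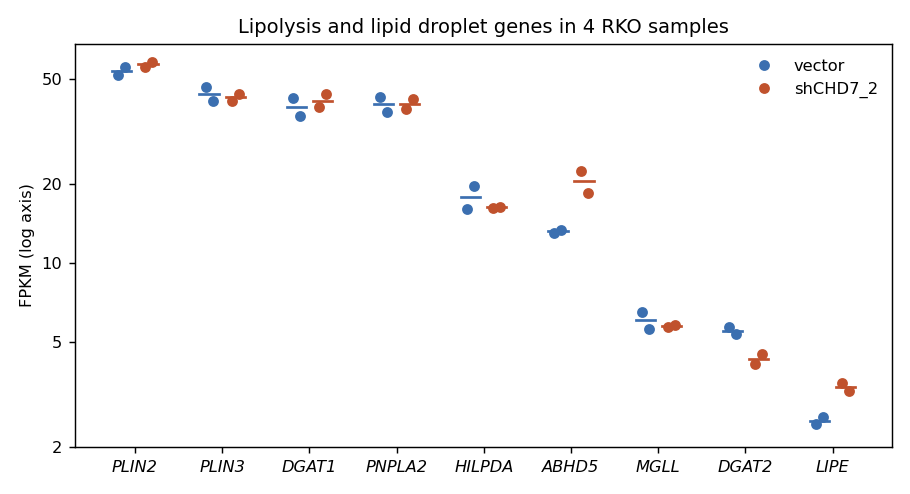
FPKM of the 9 lipolysis and lipid droplet genes (log axis) in the 2 vector samples (blue) and the 2 shCHD7_2 samples (orange). Points are samples and short lines are group means, with genes ordered by their mean over all samples. ABHD5 moves from 13.0 and 13.4 FPKM to 22.5 and 18.4 FPKM, while the points of PNPLA2, PLIN3, DGAT1, MGLL and HILPDA overlap between the groups.

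PNPLA2, the lipase that ABHD5 activates (chr11:818902-825573, plus strand), had 82.1 and 71.5 CPM in vector and 70.9 and 78.7 CPM in shCHD7_2. The groups overlapped, and the log2 fold change of -0.04 did not pass (adjusted p = 0.834 in edgeR), with a 95% interval from -14.6% to 10.97%. The interval excludes a change of the size seen for ABHD5, and the sign turned when the counts were scaled by library totals. In FPKM, PNPLA2 stood at 43.0 and 37.4 in vector and 38.5 and 42.0 in shCHD7_2, above ABHD5 in every sample.

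LIPE, the hormone-sensitive lipase (chr19:42401507-42427426, minus strand), was the member with the lowest level, at 2.44 and 2.60 FPKM in vector and 3.49 and 3.27 FPKM in shCHD7_2. Its counts were 115 and 113 against 148 and 145, and both knockdown samples lay above both controls. The log2 fold change of 0.33 had an unadjusted p of 0.044 and an adjusted p of 0.181 in edgeR, so LIPE was not called, and its 95% interval ran from 0.678% to 57.0% higher. LIPE shares exonic bases with LIPE-AS1 on the other strand, which was not analysed here.

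MGLL, the monoglyceride lipase (chr3:127689062-128052190, minus strand), had 27.7 and 23.9 CPM in vector and 23.5 and 24.3 CPM in shCHD7_2. The control samples bracketed 1 of the knockdown samples, the log2 fold change was -0.11 (adjusted p = 0.556 in edgeR), and the 95% interval ran from -20.6% to 7.81%. Of the 3 lipases of the cascade, none was called, with log2 fold changes of -0.04, 0.33 and -0.11 in the order in which they act.

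HILPDA, a hypoxia-induced droplet protein that inhibits PNPLA2 (chr7:128455849-128458418, plus strand), had 20.03 and 24.5 CPM in vector and 19.3 and 19.8 CPM in shCHD7_2. The gap between the groups in CPM was narrower than the gap between the controls, and in FPKM (16.1 and 19.6 against 16.2 and 16.4) they overlapped. The log2 fold change of -0.19 did not pass (adjusted p = 0.343 in edgeR), with a 95% interval from -25.7% to 4.05%. G0S2, the other inhibitor of PNPLA2 and not one of the 9, was far more abundant, at 343 and 301 FPKM in vector and 334 and 377 FPKM in shCHD7_2, and its log2 fold change of 0.10 did not pass (adjusted p = 0.485 in edgeR).

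PLIN2 and PLIN3, the perilipins found outside adipocytes, were the most abundant members. PLIN2 (chr9:19108375-19149290, minus strand) had 97.0 and 103 CPM in vector and 101 and 106 CPM in shCHD7_2, overlapping groups with a log2 fold change of 0.05 (adjusted p = 0.77 in edgeR, 95% interval -8.18% to 16.2%). PLIN3 (chr19:4838341-4867768, minus strand) had 103 and 91.5 CPM in vector and 88.2 and 94.9 CPM in shCHD7_2, also overlapping, with a log2 fold change of -0.09 (adjusted p = 0.569 in edgeR, 95% interval -16.9% to 6.49%). In FPKM the PLIN2 groups just separated, at 51.82 and 55.45 in vector and 55.67 and 58.07 in shCHD7_2. The perilipins of adipocytes and oxidative tissues were scarcely present: PLIN1, PLIN4 and PLIN5 had at most 9 counts in any sample and were not tested.

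The 2 enzymes of the last step of triglyceride synthesis, which are not related in sequence, were present at different levels. DGAT1 (chr8:144314584-144326910, minus strand) had 80.3 and 71.6 CPM in vector and 73.5 and 84.5 CPM in shCHD7_2, with overlapping groups and a log2 fold change of 0.06 (adjusted p = 0.751 in edgeR, 95% interval -8.84% to 18.6%). DGAT2 (chr11:75759512-75801535, plus strand) had 13.3 and 11.7 CPM in vector and 9.29 and 9.78 CPM in shCHD7_2. Both knockdown samples of DGAT2 lay below both controls, but with an unadjusted p of 0.0123 and an adjusted p of 0.0832 in edgeR it was not called. Its log2 fold change was -0.39 (standard error 0.143), with a 95% interval from -37.8% to -6.25%. DGAT1 shares exonic bases with HSF1 on the other strand, whose log2 fold change was -0.03. PNPLA2, PLIN3 and DGAT2 also share exonic bases with genes of the other strand, and HILPDA and DGAT1 with genes of their own strand. These further genes had no values here.

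Across the 9 genes, the CPM of the groups did not overlap for 4 (44.4%), higher in shCHD7_2 for ABHD5 and LIPE and lower for HILPDA and DGAT2, whereas 53.7% of all tested genes had groups that did not overlap. With no fold threshold the member count stayed at 1, beside 11.5% of all tested genes. The median log2 fold change of the members was -0.04 and that of all tested genes was 0.00056. With only 9 members, the share with separated groups was near the background share and is not a result about the members. In this fit, none of the 8 members other than ABHD5 passed the adjusted p.

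**Figure D2:**
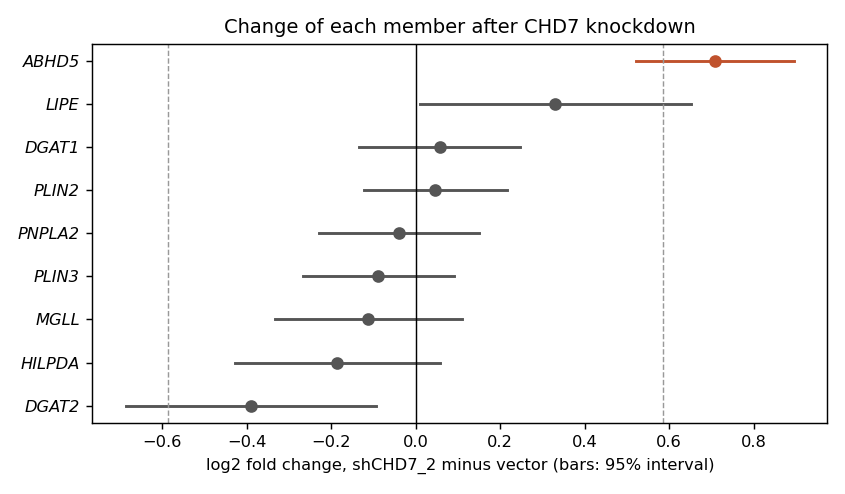
Log2 fold change of each member, shCHD7_2 minus vector, with its 95% interval from edgeR's quasi-likelihood fit (horizontal bars). Dashed lines mark a fold change of 1.5 in either direction, and the called gene is in orange. The interval of ABHD5 lies wholly to the right of 0 around 0.71, LIPE and DGAT2 have intervals that leave out 0 before adjustment, and the other 6 span 0.

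Ordered by mean FPKM over the 4 samples, the members ran from PLIN2 at 55.3 through PLIN3 at 43.3, DGAT1 at 40.3 and PNPLA2 at 40.2 to HILPDA at 17.1 and ABHD5 at 16.8, then MGLL at 5.91, DGAT2 at 4.93 and LIPE at 2.95. PLIN3 overlapped with DGAT1, and DGAT1 with PNPLA2, in both groups, and MGLL overlapped with DGAT2 in vector alone. The other neighbours in this order, PLIN2 with PLIN3 and PNPLA2 with HILPDA among them, did not overlap within either group. The order of HILPDA and ABHD5 depended on the group: ABHD5 was below HILPDA in both vector samples and above it in both shCHD7_2 samples.

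Ratios of FPKM within a sample show how the balance of the members moved. The level of ABHD5 relative to PNPLA2 was 0.302 and 0.359 in vector and 0.584 and 0.439 in shCHD7_2, a mean ratio 1.55 times as high. Relative to HILPDA, the level of ABHD5 was 0.808 and 0.686 in vector and 1.39 and 1.13 in shCHD7_2, 1.68 times as high. In both ratios the groups did not overlap, and the exact permutation test gave p = 0.333, the smallest that 2 against 2 samples allow. DGAT2 relative to DGAT1 fell from 0.135 and 0.149 to 0.106 and 0.103, again without overlap and at that same smallest p. LIPE relative to PNPLA2 was 0.0568 and 0.0695 in vector and 0.0907 and 0.0778 in shCHD7_2, also without overlap. MGLL relative to PNPLA2 differed by a factor of 0.95 with groups that just separated, and HILPDA relative to PNPLA2 and PLIN2 relative to PLIN3 overlapped. With 2 against 2 samples, none of these 7 ratios could pass a test at the usual threshold. The abundant inhibitor G0S2 stood at 26.4 and 22.5 times the level of ABHD5 in vector and 14.8 and 20.5 times in shCHD7_2. Relative to PNPLA2, G0S2 moved the other way, at 7.99 and 8.06 times in vector and 8.67 and 8.98 times in shCHD7_2. Neither G0S2 ratio was tested.

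**Figure D3:**
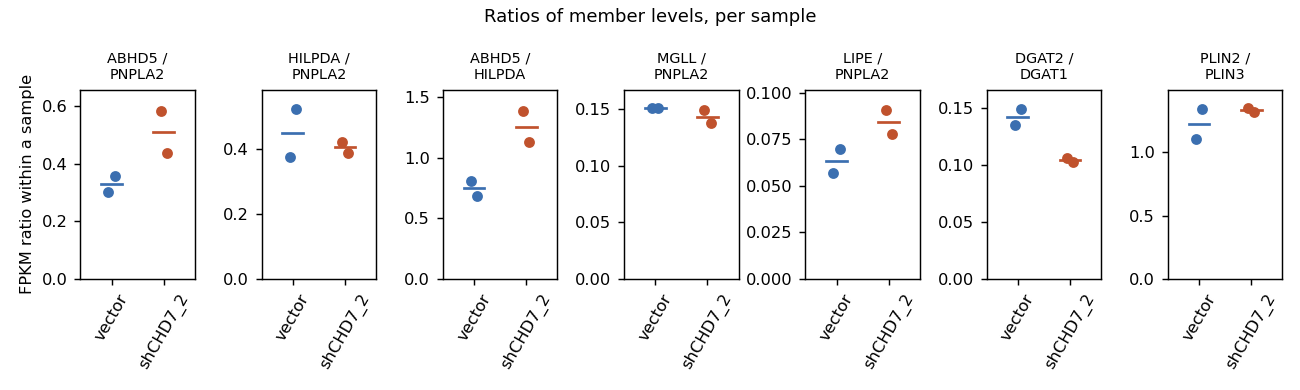
Ratios of FPKM between pairs of members within each sample (linear axes from 0), with vector in blue and shCHD7_2 in orange. Points are samples and lines are group means. ABHD5 over PNPLA2 moves from 0.302 and 0.359 to 0.584 and 0.439, and DGAT2 over DGAT1 from 0.135 and 0.149 to 0.106 and 0.103, while HILPDA over PNPLA2 overlaps.

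The genes around the 9 were read from 10 lists of lipid pathways holding 195 genes, of which 159 were tested and 6 (3.77%) were called, 2 higher and 4 lower, beside 2.88% of all tested genes. Among 16 tested genes of neutral lipid hydrolysis, ABHD5 was called higher and NCEH1, a cholesteryl ester hydrolase, was called lower, with a list median of -0.0022 on the log2 scale. NCEH1 had 21.1 and 23.6 CPM in vector and 15.0 and 12.2 CPM in shCHD7_2 (log2 fold change -0.72, adjusted p = 0.000521 in edgeR), and without shCHD7_2 replicate 2 its change of -0.58 fell short of the fold threshold. The 3 tested PNPLA relatives and the 16 tested relatives of ABHD5 in the ABHD family had 0 calls, with medians of -0.05 and -0.08 on the log2 scale. ABHD2, which was named after its values were seen, passed the adjusted p alone with a rise of 18.9% (adjusted p = 0.0446 in edgeR). PNPLA6, a phospholipase, and ABHD17A, a depalmitoylase, were the most abundant of these relatives and did not pass.

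Of 16 tested genes of triglyceride synthesis 1 was called, AGPAT4, an acyltransferase of the family that makes phosphatidic acid. It had 5.15 and 6.08 CPM in vector and 3.24 and 3.45 CPM in shCHD7_2 (log2 fold change -0.75, adjusted p = 0.0155 in edgeR), a call lost without vector replicate 2 (-0.62, adjusted p = 0.193 in edgeR). AGPAT2, the most abundant gene of this list, did not pass (log2 fold change -0.02). Named after their values were seen, AGPAT3 and GK, the glycerol kinase, passed the adjusted p but not the fold, rising by 29.7% and 26.5%, and SOAT1, which makes cholesteryl esters, fell by 21.2%.

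Fatty acid handling gave 1 call among 13 tested genes. ACSL1, which activates long-chain fatty acids to acyl-CoA, fell from 102 and 113 CPM in vector to 63.6 and 60.7 CPM in shCHD7_2 (log2 fold change -0.79, adjusted p = 1.18e-06 in edgeR), a change larger in size than that of any of the 9 members. FABP5, the most abundant gene of the list and a fatty acid carrier, had a log2 fold change of -0.06 and did not pass. None of 21 tested genes of mitochondrial fatty acid oxidation was called in edgeR, and none passed the adjusted p alone. DECR1, an auxiliary enzyme of that pathway and the most abundant on its list, had a log2 fold change of -0.17 with an unadjusted p of 0.0386.

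The 19 tested genes of droplet coat and biogenesis had 0 calls and a median of -0.02 on the log2 scale. AUP1, a droplet protein of ubiquitin handling and the most abundant on this list, passed the adjusted p alone with a fall of 16.8% (adjusted p = 0.0425 in edgeR), as did HSD17B11, a droplet-associated dehydrogenase named after its values were seen, with a fall of 22.5%. The largest change of the list, in HSD17B13, rested on at most 15.3 counts and did not pass (adjusted p = 0.151 in edgeR). Lipophagy and lysosomal control, the other route by which droplets are broken down, had 0 calls among 15. In that list HSPA8, the chaperone of chaperone-mediated autophagy, fell by 14.3%, and, named after their values were seen, LAMP1 rose by 20.7% and ATG2A by 42.4%, all past the adjusted p and short of the fold, though ATG2A was called without vector replicate 1 (log2 fold change 0.66).

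The 24 tested genes of signalling to lipolysis had 0 calls, and GNAS, the stimulatory G protein subunit upstream of protein kinase A, had a log2 fold change of -0.0023. PRKAR2A, a regulatory subunit of protein kinase A named after its values were seen, passed the adjusted p alone with a rise of 24.6%. Of 17 tested transcription factors and PPAR targets of lipid storage 2 were called. CEBPD, a factor of adipocyte differentiation, had 10.1 and 8.43 CPM in vector and 5.24 and 6.89 CPM in shCHD7_2 (log2 fold change -0.61, adjusted p = 0.0237 in edgeR). PDK4, a kinase that restrains pyruvate oxidation and a PPAR target, rose from 9 and 12 counts to 28 and 27 (log2 fold change 1.35, adjusted p = 0.0159 in edgeR). The CEBPD call was lost without vector replicate 1 (log2 fold change -0.47) or shCHD7_2 replicate 1 (-0.43), and the PDK4 call without vector replicate 1 (adjusted p = 0.139 in edgeR) or either shCHD7_2 sample (adjusted p = 0.0565 and 0.0537 in edgeR). CEBPB rose by 41.3%, past the adjusted p (0.000474 in edgeR) and short of the fold, and ANGPTL4, another PPAR target, and EGR1, both named after their values were seen, fell by 24.4% and 18.8%. Without vector replicate 2, ANGPTL4 was called (log2 fold change -0.59).

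**Figure D4:**
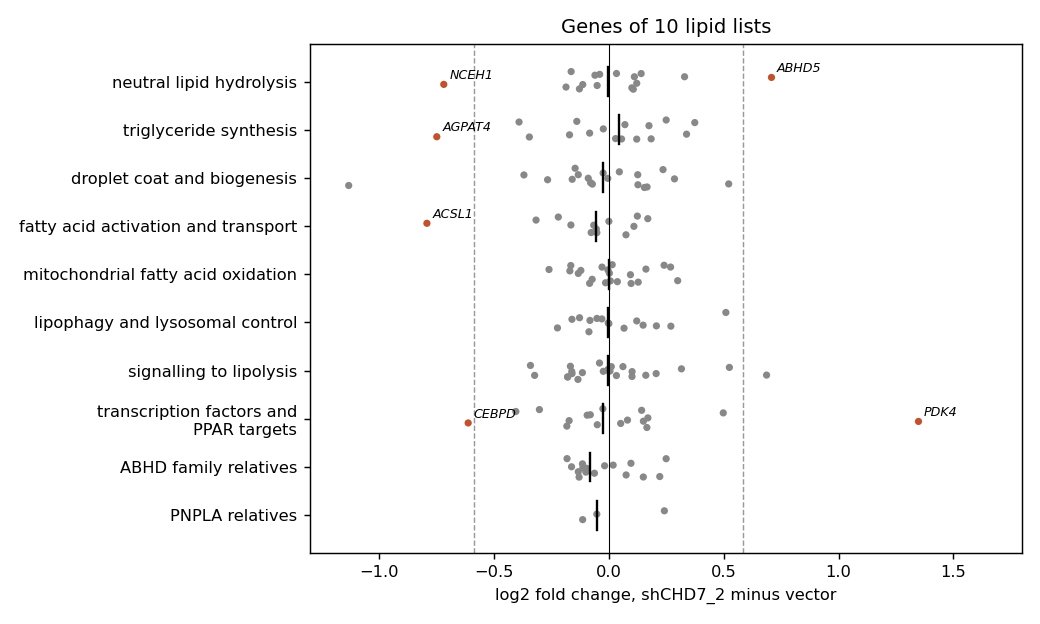
Log2 fold change (shCHD7_2 minus vector) of every tested gene in 10 lipid lists, 1 point per gene and list, with called genes in orange and named, and the list median as a black bar. Dashed lines mark a fold change of 1.5. List medians lie between -0.08 and 0.04, and the called genes are ABHD5, PDK4, NCEH1, AGPAT4, ACSL1 and CEBPD.

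The 3′ UTRs of these genes were searched for 3 words of 7 bases. They were AGCTATT, then GAAGCTA as the second, and GCTATTA, which overlaps the first by 6 bases. An earlier analysis of these same samples had picked them out among the genes that fell, so their shares are not independent of the calls. At least 1 word was present in 68.4% of 158 genes called lower, in 14.9% of 174 called higher and, over the tested genes that have a 3′ UTR in the annotation, in 22.3% of 11693. Of the 9 members 2 held a word (22.2%), ABHD5 and PLIN3. The ABHD5 site is shown as that of the called member. It lies at chr3:43719500-43719526 (GRCh38, plus strand), with the word in capitals at base 978 of a 3′ UTR of 4193 bases.
ABHD5 site: aacaagtggtGCTATTAtgtctcatgg

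Among UTRs within 25% of that length, 46.8% held at least 1 of the words. All 4 list genes called lower, NCEH1, AGPAT4, ACSL1 and CEBPD, held at least 1, and PDK4, called higher, held none. FABP5, which was not called, also held 1. The part of these words in the results was not tested.

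The genes whose pattern over the 4 samples was most like that of ABHD5, by Euclidean distance over centred log2 CPM among 11954 other tested genes, were ZCWPW1 (distance 0.0161), VWA5A (0.023) and USP53 (0.0498). ZCWPW1 had 6.70 and 6.97 CPM in vector and 12.0 and 10.7 CPM in shCHD7_2, a log2 fold change of 0.73. VWA5A had a log2 fold change of 0.74 and USP53 one of 0.68, which was short of the fold without shCHD7_2 replicate 1 (0.57). All 3 were called in edgeR, which their likeness to a called gene makes likely by construction, and 4 samples in 2 groups leave little pattern beyond the group difference.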

How the data were processed

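RNA-seq of 4 RKO samples was used. The authors deposited estimated counts per gene, of which between 13.6% and 14.7% are not whole numbers, and FPKM values normalised for length and depth for the same genes. The submitters' processing notes name Bowtie2, RSEM, DESeq2 and the build hg38, with no versions or roles, and the annotation, filters and strand setting are not given in the sources used here. RSEM divides reads between similar or overlapping genes, so such genes are uncertain.

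Groups came from the sample labels. Counts were rounded and filtered with filterByExpr of edgeR 4.0.16 in R 4.3.3, scaled by TMM and tested over 11955 genes by quasi-likelihood without covariates, adjusting p by Benjamini-Hochberg. Calls needed both an adjusted p below 0.05 and a 1.5-fold change. The biological coefficient of variation was 0.0579. Samples within a group differed beyond sampling noise (chi-square per gene 3.94 in vector and 6.05 in shCHD7_2). FPKM ratios were compared by an exact two-sided permutation test. Levels of different genes were compared in FPKM.

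Alternatives were edgeR scaled by library totals or by size factors of DESeq2, the Wald test of DESeq2 1.42.0, no filter, and a CPM above 1 in 2 libraries. Further ones were limma 3.58.1 on log2(FPKM + 1) and log2(FPKM + 0.1) for genes averaging at least 1 FPKM, and on the former for all genes. The rest were a replicate block, leaving out each sample, and a crossed replicate pairing added after the data were seen. These made 14 fits. Calls were also counted with no fold threshold. Deviations of same-numbered samples had a correlation of -0.198. With 2 samples per group the crossed numbering gives the same size with the opposite sign, so this value cannot decide whether samples were paired. The labels state no pairing.

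The members and lists were chosen with earlier results of these data known. Named genes were the members, CHD7, up to 4 called genes and the most abundant gene of each list, and the 3 genes most like ABHD5. ANO10, HSF1, HSD17B13 and those marked in the text were named after their values were seen. Annotation was GENCODE 29. Promoters came from RefSeq for 5 of the 9 members (ABHD5, PNPLA2, LIPE, PLIN2 and PLIN3).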

Additional observations from a re-analysis of the deposited data

How the results depend on the processing

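ABHD5 was called higher in 13 of 14 alternative analyses, with log2 fold changes from 0.589 to 0.789, from 0.618 to 0.789 when each sample was left out, and adjusted p from 9.23e-29 to 0.16. It was not called by limma on log2(FPKM + 1) without a filter (0.589, adjusted p = 0.16), where the number of members called was 0 and 8 genes were called in all. The other 8 members were called in 0 of 14, though the lowest adjusted p of DGAT2 among them was under 0.05, short of the fold. With the replicate block ABHD5 had 0.707 (adjusted p = 3.59e-06), 329 genes were called and no member's call changed. The crossed replicate pairing, which is counted in the 14 and was added after the data were seen, called ABHD5 alone among the members.

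The sign of PNPLA2 turned with library totals (0.00483) and with limma at a pseudocount of 1 (0.00492 with and without a filter) or 0.1 (0.00507). That of AGPAT2 turned in the same fits (0.0206, 0.0159 and 0.016), as did GNAS (0.0413 and 0.03), which was also 0.000523 with DESeq2's size factors and in DESeq2. With each sample left out the ranges were -0.136 to 0.0634 for PNPLA2, -0.00117 to 0.0944 for PLIN2, -0.0478 to 0.149 for DGAT1, -0.00344 to 0.197 for G0S2, -0.145 to 0.0848 for AGPAT2, -0.0565 to 0.0453 for GNAS and -0.0881 to 0.134 for ABHD17A. The cause was not tested.

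Over all genes, 344 calls became 221 in DESeq2, 141 with no filter, 172 by limma on log2(FPKM + 1) and 1373 with no fold threshold. NCEH1 was called in 10 of 14, ACSL1 in 13 of 14, CHD7 in 11 of 14, CEBPD in 6 of 14, and AGPAT4 and PDK4 in 8 and 6 of the 12 in which they were tested. With library totals the calls were 209 higher and 136 lower, against 180 and 164.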
